A study of Mus musculus with 6 samples.

Results

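Chemokines and their receptors were examined in mouse bone marrow cells transduced with MN1 or with an empty vector. The genes taken were those whose only annotated symbol on a probe set is Ccl, Ccr, Cxcl or Cxcr followed by digits alone, together with Cx3cl1, Cx3cr1, Xcl1 and Xcr1. The genes analysed here number 51 of 19938 single-named genes, 34 of them ligands and 17 receptors. Ccl21a to Ccl21d, Ccl27a and Ccl27b lie on probe sets with several names and were not included. For the genes with several probe sets, Ccl19 and Ccl25, the brightest set by its mean over the 6 arrays was used.

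Both groups came from marrow transduced with an MSCV retrovirus, in which an IRES links the insert to a fluorescent reporter, and reporter-positive cells were sorted 72 hours later. The MN1 group (3 arrays) received the vector with MN1, a transcriptional coregulator that is often highly expressed in myeloid leukaemia, and the empty vector group (3 arrays) received the vector without it. The series text counts 3 separate experiments, names the reporter YFP where the sample labels say GFP, and gives no mouse strain, age or sex in the sources used here. The sorted population is bulk marrow of mixed cell types, so a lower level can reflect fewer cells of a type or less RNA per cell, and these cannot be told apart.

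Chemokines are small secreted proteins that bind G protein-coupled receptors on leukocytes and direct their movement. Inflammatory chemokines such as Ccl2 and Cxcl1 draw monocytes and neutrophils out of marrow and into tissue, whereas homeostatic ones such as Cxcl12 hold stem cells and granulocytes in marrow through Cxcr4. A ligand often binds several receptors, and many inflammatory ligands lie side by side in clusters of genes that arose by duplication.

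Mn1 was read as a check of the labels, within limits, since its mean lay among the dimmest 40% of genes and the species of the MN1 insert is not given in the sources used here. It stood at log2 levels of 6.47, 6.62 and 6.08 on the MN1 arrays 1 to 3 and at 5.34, 5.41 and 4.80 on the empty vector arrays 1 to 3. All MN1 arrays were above all empty vector arrays, with a difference of 1.20 ± 0.21 (log2, moderated SE, n = 3 per group). The arrays also differed within each group. The mean log2 level of the Y-linked genes Eif2s3y, Kdm5d and Uty was 7.11, 6.12 and 7.57 on the MN1 arrays and 5.78, 3.78 and 7.04 on the empty vector arrays. The array of empty vector replicate 2 was therefore lowest in these genes, and the differences that moved most with it are given with and without it. Neutrophil markers (14 genes) had mean log2 levels of 9.31, 10.07 and 9.48 with MN1 and 11.00, 12.06 and 8.92 with the empty vector, so that empty vector replicate 3 stood apart from the other empty vector arrays. The mean of the monocyte and macrophage markers (14 of 17 measured) was higher on every MN1 array, at 10.18 to 10.95 against 9.78 to 9.93. Of these genes, 12 were higher and 2 lower on average.

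The chemokine genes showed wide differences in both directions, and none passed the test. Of the 51 genes, 20 were higher and 31 lower on average in the MN1 group, and the median of the log2 differences was -0.09. Over all 19938 genes, 8628 were higher and 11310 lower, and the median was -0.03. The ligands were split, with 18 of 34 higher and a median of 0.01, whereas 15 of 17 receptors were lower, with a median of -0.22. After each array was centred on its median, 14 receptors were lower, beside 49.9% of all genes. Without MN1 replicate 1 the count was 12, beside 54.1% of all genes. Many receptors were dim, and a filter on the dimmest 40% of genes left 8, of which 7 were lower, beside 42.8% of all genes left.

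With limma and Benjamini-Hochberg adjustment over all genes, 0 of the 51 had an adjusted p under 0.05, as did 0 of all genes (0.0%), and the adjusted p of the chemokine genes ran from 0.584 to 0.998. An unadjusted p under 0.05 was found for 3 higher genes (Ccl1, Ccl2 and Cxcl16), a share of 5.88% beside 4.17% of all genes. In the other direction 5 were lower (Ccl22, Cx3cl1, Xcl1, Ccr6 and Xcr1), a share of 9.8% beside 4.23%. With median-centred arrays these counts were 4 higher and 3 lower, beside 977 higher and 400 lower genes in place of 832 and 843, and with quantile normalization they were 2 and 2, beside 561 and 721 genes. At this sample size the counts describe these arrays and call no single gene.

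The sizes of the differences stood further from the background than the tests did. Differences of at least 2-fold were found for 6 genes higher with MN1 (Ccl8, Ccl1, Ccl2, Ccl7, Cxcl5 and Ccl12), which is 11.8% of the set beside 0.993% of all genes. Another 3 were at least 2-fold lower (Cxcl10, Ccl22 and Ccl17), or 5.88% beside 0.381%. The count of 6 rested on empty vector replicate 2. Without that array only Ccl1 was at least 2-fold higher, beside 0.542% of all genes, and 5 genes were at least 2-fold lower, beside 0.261%. A fit with the mean of the Y-linked genes as a covariate was added after the data were seen. Its counts were also 1 and 5, beside 0.717% and 0.471% of all genes. The Y-linked genes were all higher on average with MN1, so this covariate overlaps with the group. Replicate arrays also differed more for the chemokine genes. The pooled within-group SD was above 1 on the log2 scale for 12 of the 51 (23.5%) beside 1.08% of all genes, and its median was 0.37 beside 0.17. The largest SD values belonged to Ccl8 (2.44), Ccl24 (1.88), Cxcl5 (1.76) and Ccl17 (1.37). Measured against its own spread, a difference larger than the pooled SD was found for 23 genes (45.1%) beside 40.0% of all genes.

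Counted by array, every MN1 value exceeded every empty vector value for 1 gene, Ccl2, a share of 1.96% beside 5.71% of all genes. The MN1 values were all below those of the empty vector for 9 genes, namely Ccl22, Cx3cl1, Xcl1, Ccl26, Ccr10, Ccr6, Cxcr3, Cxcr1 and Xcr1, a share of 17.6% beside 10.3%. Of these 9, 5 were among the 20 chemokine genes whose mean lay in the dimmest 40% of all genes (a log2 level of up to 5.82), where most of the genome was also slightly lower. Of all genes that dim, 6188 of 7975 were lower with MN1 (77.6%), as were 17 of the 20 dim chemokine genes (85.0%), and 17.0% of all dim genes beside 25.0% of the dim chemokine genes had every MN1 value below the empty vector values. Among the 31 brighter chemokine genes, 17 were higher and 14 lower (median 0.01), beside 42.8% lower and a median of 0.04 over all brighter genes.

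**Figure D1:**
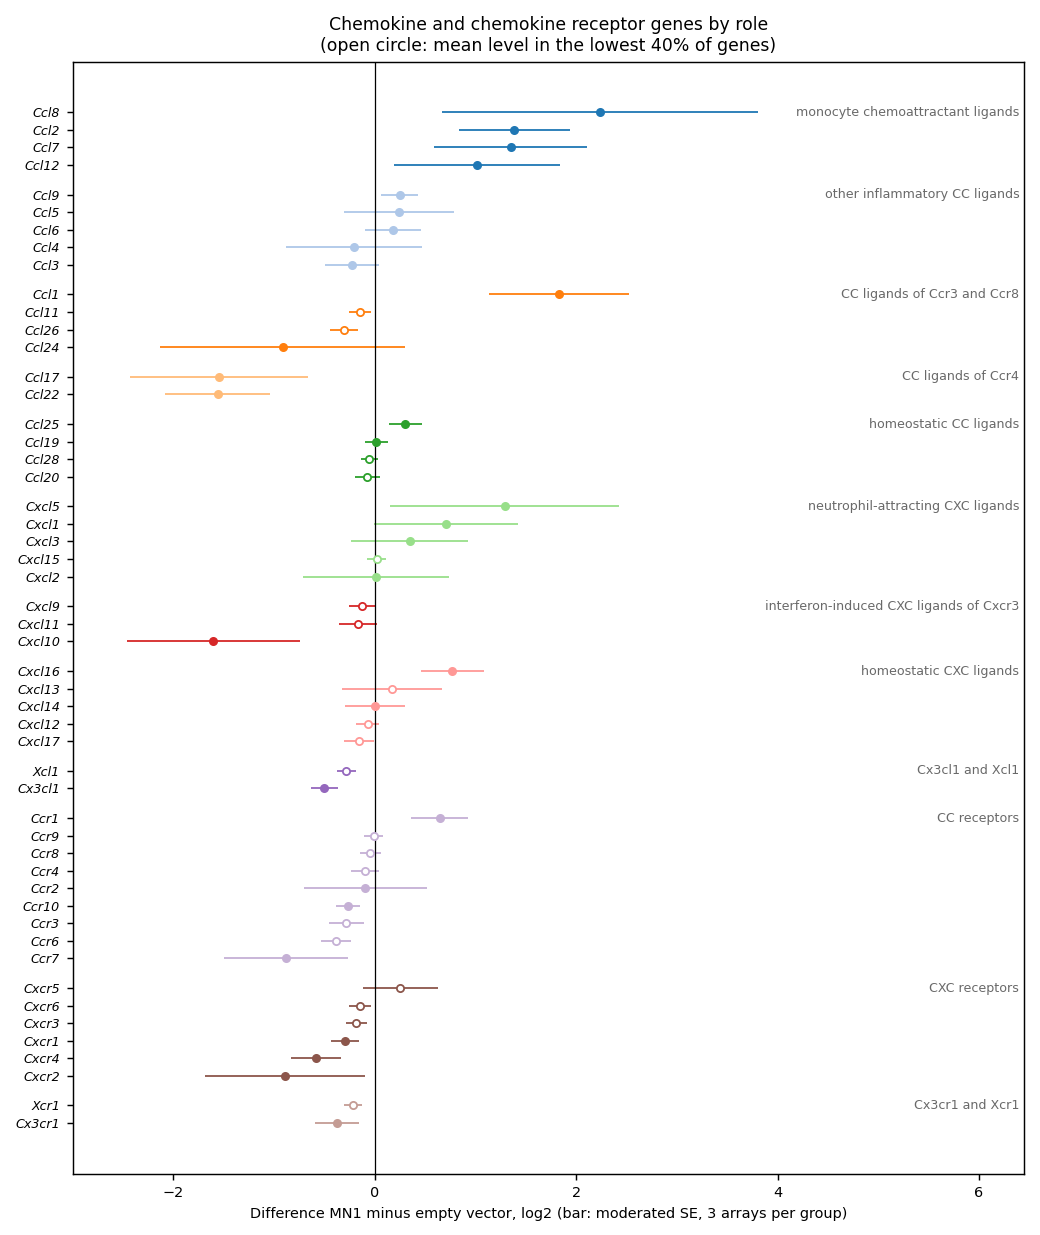
Difference of each of the 51 chemokine and receptor genes between MN1 and empty vector, in log2 units, grouped by role, with bars for the moderated SE (3 arrays per group). Filled circles are brighter genes and open circles those in the dimmest 40% of all genes. The 4 genes of the monocyte chemoattractant protein family lie between 1.02 and 2.24, while 15 of 17 receptors lie to the left of 0.

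Ccl2, Ccl7, Ccl8 and Ccl12, the genes of the monocyte chemoattractant protein family, stand with Ccl11 and Ccl1 in 1 run of neighbouring genes on chromosome 11. All 4 were higher on average with MN1, by 1.02 to 2.24 on the log2 scale, with a median of 1.37, which was 0.51 without empty vector replicate 2. Ccl11, an eosinophil attractant in the same run, was dim and differed by -0.15 ± 0.11. The promoters in the RefSeq table (GRCm38.p6) are shown for the 3 genes of this run that the table holds, since these are neighbours that were all higher on average. Each line gives the 200 bases before the annotated start, 5′ to 3′ on the strand of the gene, at chr11:82101645-82101844 (plus strand) for Ccl12, chr11:82114985-82115184 (plus strand) for Ccl8 and chr11:82179813-82180012 (minus strand) for Ccl1, with capitals for the motif matches named after them.
Ccl12: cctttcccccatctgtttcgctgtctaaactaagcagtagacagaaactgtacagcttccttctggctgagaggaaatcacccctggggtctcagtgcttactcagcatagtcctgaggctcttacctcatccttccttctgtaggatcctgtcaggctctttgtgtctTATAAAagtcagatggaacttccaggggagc
Ccl8: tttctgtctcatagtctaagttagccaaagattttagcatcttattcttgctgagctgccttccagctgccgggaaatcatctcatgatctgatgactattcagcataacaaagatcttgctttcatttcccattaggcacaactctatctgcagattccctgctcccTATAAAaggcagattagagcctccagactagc
Ccl1: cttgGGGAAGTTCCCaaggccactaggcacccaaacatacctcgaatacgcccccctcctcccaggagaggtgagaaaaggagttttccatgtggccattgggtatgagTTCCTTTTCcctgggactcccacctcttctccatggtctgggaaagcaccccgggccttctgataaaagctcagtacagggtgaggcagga

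In Ccl12 and Ccl8 the capitals mark TATAAA, the TATA box, which starts 31 and 32 bases before the start. In Ccl1 they mark a pair of overlapping matches to a kappa B core (GGGANNTTC or GGGANTTCC), the kind of sequence that NF-kappa B binds, and 1 match to the core of an interferon-stimulated response element (GAAANNGAA), 91 to 83 bases before the start. Promoter windows were found for 37 of the 51 genes, in 39 windows. In the 250 bases before the start, TATAAA on the gene strand was present in 25.6% of these windows and in 7.59% of all 32851 windows. The response element core, on both strands, was present in 20.5% beside 7.13%, and the kappa B core, on both strands, in 23.1% beside 4.61%. These are matches of letters, and no binding was measured.

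Ccl2, the main ligand that calls Ccr2-bearing monocytes from marrow, had log2 levels of 11.01, 10.31 and 10.46 with MN1 and 10.07, 7.92 and 9.64 with the empty vector. The groups did not overlap, although MN1 replicate 2 was only slightly above empty vector replicate 1. The difference was 1.38 ± 0.55, a 2.61-fold higher mean (adjusted p 0.584, limma). Without empty vector replicate 2 it was 0.74.

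Ccl7, a close relative of Ccl2 that also acts on Ccr2, had levels of 10.61, 9.46 and 9.92 with MN1 and 9.54, 6.85 and 9.55 with the empty vector. Its groups overlapped, because MN1 replicate 2 lay below both of the higher empty vector arrays. The difference was 1.35 ± 0.76 (adjusted p 0.610, limma), and 0.45 without empty vector replicate 2.

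Ccl8, which in mice acts mainly on Ccr8, showed the widest range of any of the 51 genes, with levels of 10.30, 8.57 and 10.74 with MN1 and 7.86, 4.28 and 10.76 with the empty vector. The highest and the lowest array both belonged to the empty vector group. Its difference of 2.24 ± 1.57 (adjusted p 0.657, limma) was 0.56 without empty vector replicate 2. Ccl12, another Ccr2 ligand found in mice, had levels of 7.62, 5.61 and 8.08 with MN1 and 6.09, 4.86 and 7.31 with the empty vector. Here too empty vector replicate 2 was lowest and the groups overlapped. The difference was 1.02 ± 0.82 (adjusted p 0.685, limma), and 0.40 without that array.

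The order of the arrays in these genes was set beside that of the Y-linked genes, with empty vector replicate 2 lowest in each. From high to low, the Y-linked mean ran MN1 3, MN1 1, empty vector 3, MN1 2, empty vector 1, empty vector 2. Ccl8 had empty vector 3 first and then the same order, and Ccl12 differed from the Y-linked order by an exchange of MN1 2 and empty vector 1. Ccl7 ran MN1 1, MN1 3, empty vector 3, empty vector 1, MN1 2, empty vector 2. In Ccl2 the order was unlike it, with MN1 1, MN1 3 and MN1 2 ahead of empty vector 1, empty vector 3 and empty vector 2. With the Y-linked mean as a covariate, the differences were 0.67 for Ccl2, 0.23 for Ccl7, -0.26 for Ccl12 and -0.41 for Ccl8. All 3 Y-linked genes were themselves higher on average with MN1 (median 1.52). The covariate thus overlaps with the group, and this fit cannot tell their parts in a difference apart. The macrophage marker C1qa, a complement subunit, had levels of 11.62, 10.05 and 9.96 with MN1 and 9.37, 7.58 and 9.40 with the empty vector, so it too was lowest on empty vector replicate 2. The macrophage list was mixed on that array. C1qb and C1qc were also lowest there, at 8.71 and 8.03, but F13a1 and Vcan were highest, at 12.07 and 10.65. The list mean there was 9.78, beside 9.90 and 9.93 on the other empty vector arrays. The part of these markers in the chemokine differences was not tested.

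Ccr2, the monocyte receptor for Ccl2, Ccl7 and Ccl12, had the group means close together. Its levels were 8.91, 9.52 and 10.28 with MN1 and 9.46, 10.89 and 8.65 with the empty vector. The highest and the lowest array were both empty vector arrays, and the difference was -0.10 ± 0.61, with a 95% interval from -1.56 to 1.37. The direction turned without empty vector replicate 2, where the difference was 0.52, and it was 0.62 with the Y-linked covariate.

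**Figure D2:**
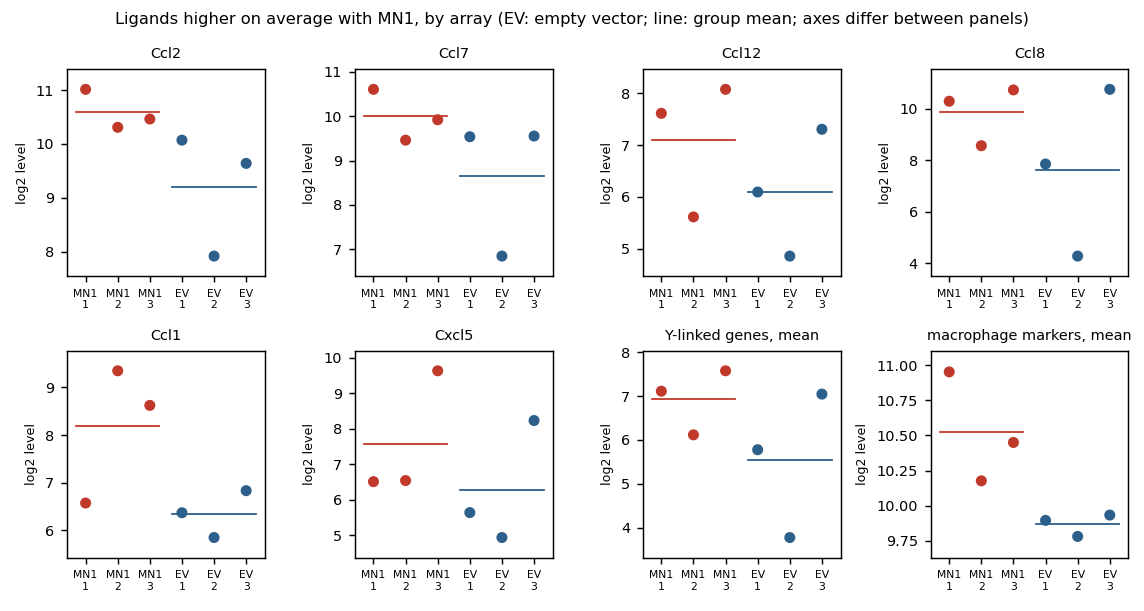
Log2 level of 6 ligands that were higher on average with MN1 on each of the 6 arrays, with lines for the group means, beside the mean of the 3 Y-linked genes and of the macrophage markers. Empty vector replicate 2 is the lowest array for all 6 ligands, for the Y-linked genes and for the macrophage markers; the vertical axes differ between panels.

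Ccl1, which is made mainly by activated lymphocytes, monocytes and mast cells and binds Ccr8, had levels of 6.58, 9.35 and 8.62 with MN1 and 6.37, 5.85 and 6.83 with the empty vector. MN1 replicates 2 and 3 were above all other arrays, and MN1 replicate 1 lay within the empty vector range. The difference was 1.83 ± 0.70, or 3.55-fold (adjusted p 0.584, limma). It ran from 1.25 without MN1 replicate 2 to 2.63 without MN1 replicate 1 and was 1.69 with the Y-linked covariate. Ccr8 was dim in both groups and differed by -0.04 ± 0.10.

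The inflammatory CC ligands of a second run on chromosome 11 were bright in both groups and differed little. These 5 genes (Ccl3, Ccl4, Ccl5, Ccl6 and Ccl9) had differences from -0.23 to 0.25, with 3 higher and 2 lower, and overlapping groups for each. Ccl3, which is secreted by activated macrophages, differed by -0.23 ± 0.27, and Ccl9, which is made by macrophages and other myeloid cells, by 0.25 ± 0.18. Ccl5 and Ccl4 were less precisely measured, at 0.24 ± 0.55 and -0.21 ± 0.67.

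Ccr1, which binds several of these ligands, was the receptor with the largest positive difference. It is carried by monocytes and neutrophils, and its levels were 9.75, 8.90 and 9.58 with MN1 and 8.79, 9.14 and 8.36 with the empty vector. The groups overlapped only through MN1 replicate 2 and empty vector replicate 2. The difference was 0.65 ± 0.28 (adjusted p 0.584, limma), and it ran from 0.45 to 0.90 as each array was left out in turn.

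The ligands of Ccr4, Ccl17 and Ccl22, were lower on average with MN1. Both are made by dendritic cells and some macrophages and attract Th2 and regulatory T cells. They lie on chromosome 8 with Cx3cl1 between them, and Cx3cl1 was lower as well, so the 200 bases before the start of each are shown from the same RefSeq table, at chr8:94745484-94745683 for Ccl22, chr8:94771980-94772179 for Cx3cl1 and chr8:94810253-94810452 for Ccl17, all on the plus strand. Capitals mark TATAAA, found in Cx3cl1 in the last 6 bases before the start, and none of the 3 motifs was found in the printed bases of Ccl22 or Ccl17.
Ccl22: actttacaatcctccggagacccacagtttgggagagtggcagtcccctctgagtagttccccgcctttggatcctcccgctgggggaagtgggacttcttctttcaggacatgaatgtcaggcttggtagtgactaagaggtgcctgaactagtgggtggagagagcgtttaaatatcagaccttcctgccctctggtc
Cx3cl1: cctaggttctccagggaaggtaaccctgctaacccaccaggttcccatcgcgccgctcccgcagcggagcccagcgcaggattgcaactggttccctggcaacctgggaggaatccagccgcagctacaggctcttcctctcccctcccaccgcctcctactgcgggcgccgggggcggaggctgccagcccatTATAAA
Ccl17: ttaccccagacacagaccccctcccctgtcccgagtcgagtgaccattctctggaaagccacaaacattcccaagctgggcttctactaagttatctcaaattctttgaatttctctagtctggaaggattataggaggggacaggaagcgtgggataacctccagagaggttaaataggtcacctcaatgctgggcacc

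Ccl22 had levels of 5.21, 5.97 and 5.90 with MN1 and 7.61, 6.07 and 8.06 with the empty vector. All MN1 arrays were lower, but empty vector replicate 2 was only slightly above them. The difference was -1.56 ± 0.52, a 2.94-fold lower mean (adjusted p 0.584, limma), and it ran from -2.15 without empty vector replicate 2 to -1.15 without empty vector replicate 3. With the Y-linked covariate it was -2.25.

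Ccl17 had levels of 6.36, 8.41 and 6.26 with MN1 and 10.28, 7.52 and 7.87 with the empty vector. MN1 replicate 2 was higher than the lower pair of empty vector arrays, so the groups overlapped. The difference was -1.55 ± 0.88 (adjusted p 0.612, limma), and -0.69 without empty vector replicate 1. Ccr4 was dim and differed by -0.09 ± 0.14.

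Cx3cl1, a membrane-bound chemokine that also serves as an adhesion molecule, had levels of 6.59, 6.49 and 6.44 with MN1 and 7.21, 6.78 and 7.03 with the empty vector. The groups did not overlap, and the difference was -0.50 ± 0.13, or 1.41-fold (adjusted p 0.584, limma). It was the most evenly measured of the lower ligands above the dim level, with a range of -0.61 to -0.40 as each array was left out. Its receptor Cx3cr1, a marker of patrolling monocytes, averaged 6.69 with MN1 (SD 0.27) and 7.06 with the empty vector (SD 0.35), 3 arrays each, and the groups overlapped with a difference of -0.37 ± 0.22.

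Markers of dendritic cells and antigen presentation (17 genes) had mean levels of 7.69 to 8.43 on the MN1 arrays and 7.80 to 8.26 on the empty vector arrays, with 8 higher and 9 lower. The list means overlapped between the groups, but 6 of the 17 genes did not. Over all genes, every MN1 value lay below the empty vector values for 10.3% and above them for 5.71%. Fscn1 (-1.14 ± 0.26), Ciita (-0.81 ± 0.13), Batf3 (-0.50 ± 0.26) and Zbtb46 (-0.38 ± 0.10) were lower on all MN1 arrays, and Flt3 (1.83 ± 0.39) and Bst2 (0.78 ± 0.32) were higher. Flt3 is also among the stem and progenitor markers. The part of the dendritic cell marker list in the lower Ccl22 and Ccl17 was not tested.

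The eosinophil-attracting ligands of Ccr3, Ccl11, Ccl24 and Ccl26, were each lower on average with MN1, as was Ccr3, but Ccl24 alone was above the dim level. Ccl24, which is made by macrophages, had levels of 7.54, 10.19 and 7.67 with MN1 and 11.87, 8.61 and 7.67 with the empty vector. A single empty vector array was highest, and the difference of -0.92 ± 1.21 (adjusted p 0.802, limma) turned to 0.33 without empty vector replicate 1. Ccl26 was dim and lay below the empty vector arrays on all MN1 arrays, by -0.30 ± 0.14, and Ccr3 was dim as well, at -0.28 ± 0.17. Eosinophil, basophil and mast cell markers (12 genes, 11 of them lower) had mean levels of 9.02, 10.01 and 9.14 with MN1 and 10.54, 10.56 and 9.25 with the empty vector.

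Cxcl10, an interferon-induced ligand of Cxcr3 that attracts activated T cells, had the largest negative difference. Its levels were 11.52, 9.87 and 8.31 with MN1 and 10.87, 11.03 and 12.61 with the empty vector. MN1 replicate 3 was far below and empty vector replicate 3 far above the rest, while MN1 replicate 1 lay within the empty vector range. The difference was -1.60 ± 0.86, or 3.04-fold (adjusted p 0.600, limma), and it ran from -2.41 without MN1 replicate 1 to -0.80 without MN1 replicate 3.

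The other ligands of Cxcr3 and the receptor itself were dim. Cxcl9 differed by -0.12 ± 0.14, Cxcl11, which RefSeq gives as a transcribed pseudogene, by -0.16 ± 0.19, and Cxcr3 by -0.19 ± 0.10, with all MN1 arrays below. The promoter of Cxcl10 is shown because it alone of the 3 ligands was bright. The bases lie at chr5:92348890-92349089 on the minus strand, and the capitals mark matches to the kappa B core that begin 159 and 103 bases before the start. A match to the interferon-stimulated response element core was also found in the 250 bases searched, but not within the 200 printed.
Cxcl10: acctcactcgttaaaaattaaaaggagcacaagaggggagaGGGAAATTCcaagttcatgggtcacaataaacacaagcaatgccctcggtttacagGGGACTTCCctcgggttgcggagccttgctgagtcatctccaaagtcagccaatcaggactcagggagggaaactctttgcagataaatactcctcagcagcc

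**Figure D3:**
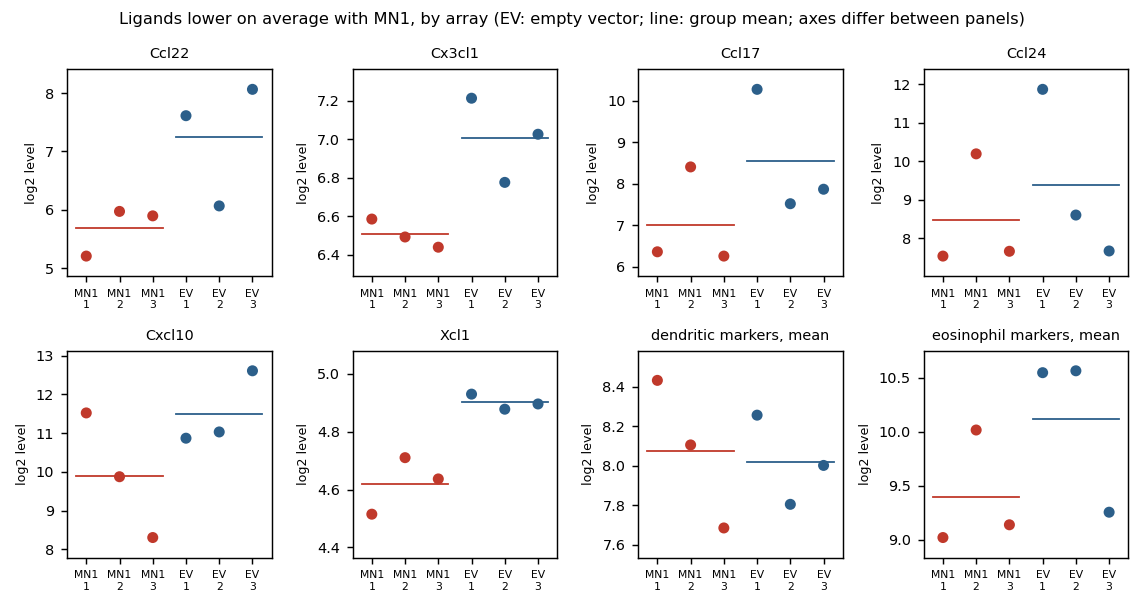
Log2 level of 6 ligands that were lower on average with MN1 on each of the 6 arrays, with lines for the group means, beside the mean of the dendritic cell markers and of the eosinophil, basophil and mast cell markers. Ccl22, Cx3cl1 and Xcl1 are lower on all MN1 arrays, whereas the groups overlap for Ccl17, Ccl24 and Cxcl10; the vertical axes differ between panels.

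The neutrophil-attracting CXC ligands, most of which bind Cxcr2, were higher on average in 5 of 5 cases, with differences of 0.01 to 1.29 and overlapping groups for each. This count was 3 of 5 without MN1 replicate 1, empty vector replicate 1 or empty vector replicate 2, 4 of 5 with quantile normalization or array weights, and 2 of 5 with the Y-linked covariate. Cxcl5 had levels of 6.51, 6.54 and 9.63 with MN1 and 5.64, 4.94 and 8.23 with the empty vector. The replicate 3 arrays of both groups were well above the others. The difference was 1.29 ± 1.14 (adjusted p 0.706, limma), 0.26 without MN1 replicate 3, 0.63 without empty vector replicate 2 and -0.24 with the Y-linked covariate.

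Cxcl1, the main neutrophil attractant released by stimulated macrophages and stroma, had levels of 10.52, 8.01 and 7.89 with MN1 and 7.97, 7.71 and 8.64 with the empty vector. A single array, MN1 replicate 1, was high. The difference was 0.71 ± 0.72 (adjusted p 0.741, limma) and -0.15 without that array. Cxcl2, its close relative, differed by 0.01 ± 0.73, Cxcl3 by 0.35 ± 0.58 and the dim Cxcl15 by 0.02 ± 0.09. Without empty vector replicate 2, Cxcl2 was at -0.29 and Cxcl3 at -0.24.

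Cxcr2, which moves neutrophils from marrow to blood, had levels of 8.06, 8.64 and 8.10 with MN1 and 9.99, 10.28 and 7.19 with the empty vector. Empty vector replicate 3 was the lowest array and the other empty vector arrays the highest. The difference was -0.89 ± 0.80 (adjusted p 0.711, limma), -0.32 without empty vector replicate 2, -1.87 without empty vector replicate 3 and 0.23 with the Y-linked covariate. The neutrophil marker Ly6g had levels of 8.50, 8.29 and 6.37 with MN1 and 10.77, 11.31 and 6.56 with the empty vector, so it was low on the same empty vector array, and 13 of 14 neutrophil markers were lower on average with MN1. Their part in the Cxcr2 difference was not tested. Cxcr1, which also binds neutrophil attractants, was below the empty vector arrays on all MN1 arrays, by -0.30 ± 0.14.

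Cxcr4, the receptor through which Cxcl12 retains cells in marrow, was bright, with levels of 11.55, 10.76 and 10.80 with MN1 and 11.32, 11.71 and 11.82 with the empty vector. MN1 replicate 1 lay above empty vector replicate 1, and the other MN1 arrays lay below all empty vector arrays. The difference was -0.58 ± 0.25 (adjusted p 0.584, limma), and it stayed between -0.84 and -0.44 as each array was left out. Cxcl12, which is made chiefly by marrow stroma, was dim in the sorted cells and differed by -0.07 ± 0.12.

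Cxcl16, a transmembrane ligand of Cxcr6 that macrophages carry, had levels of 9.86, 9.44 and 9.26 with MN1 and 9.28, 8.13 and 8.83 with the empty vector. The groups touched, with empty vector replicate 1 just above MN1 replicate 3. The difference was 0.77 ± 0.31, or 1.71-fold (adjusted p 0.584, limma), 0.46 without empty vector replicate 2 and 0.49 with the Y-linked covariate. Cxcr6 was dim, at -0.14 ± 0.11.

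Ccr7, which guides dendritic cells, B cells and T cells into lymph nodes, had levels of 6.23, 6.05 and 7.01 with MN1 and 6.70, 6.50 and 8.75 with the empty vector. Empty vector replicate 3 was far above the others, and without it the difference of -0.88 ± 0.62 (adjusted p 0.655, limma) was -0.17. The B cell gene Cd79a had levels of 6.37, 5.05 and 7.50 with MN1 and 6.16, 5.53 and 8.54 with the empty vector, so it was highest on the same array. The B cell markers as a list (10 of 11 measured) had mean levels of 7.11, 6.21 and 7.26 with MN1 and 6.35, 5.77 and 7.47 with the empty vector, and 6 of the 10 were higher on average with MN1. Their part in the Ccr7 difference was not tested. Ccl19, a ligand of Ccr7, differed by 0.01 ± 0.11, and its other 4 probe sets differed by -0.08 to -0.04.

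Cxcr5, the B cell receptor for Cxcl13, had levels of 5.13, 4.18 and 5.18 with MN1 and 4.38, 4.13 and 5.22 with the empty vector. It was dim by its mean and stood higher on 3 arrays from both groups, and the difference was 0.25 ± 0.37. Cxcl13, dim by its mean as well, was highest on the replicate 3 arrays of both groups, at 6.24 with MN1 and 5.76 with the empty vector. The other arrays lay between 4.66 and 4.76.

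**Figure D4:**
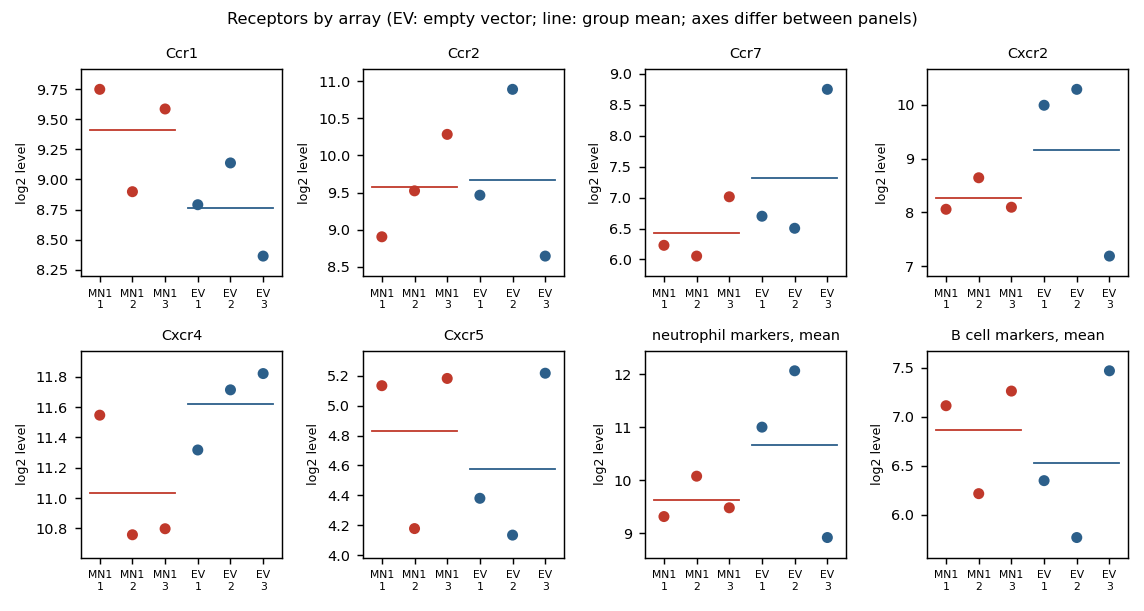
Log2 level of 6 receptors on each of the 6 arrays, with lines for the group means, beside the mean of the neutrophil markers and of the B cell markers. Cxcr2 and the neutrophil markers share their lowest array, empty vector replicate 3, and Ccr7 is highest on that array, as are the B cell markers; the vertical axes differ between panels.

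Several dim genes differed by small amounts with little spread. Xcl1, a ligand made by natural killer and CD8 T cells, had levels of 4.51, 4.71 and 4.64 with MN1 and 4.93, 4.88 and 4.90 with the empty vector, a difference of -0.28 ± 0.09 (adjusted p 0.584, limma). Xcr1, its receptor on cross-presenting dendritic cells, had levels of 4.72, 4.71 and 4.66 with MN1 and 4.86, 4.91 and 4.99 with the empty vector, a difference of -0.22 ± 0.09 (adjusted p 0.584, limma). Both were lower on all MN1 arrays, at levels near which 77.6% of all genes were lower.

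Ccr6, the receptor for Ccl20 on B cells and Th17 cells, had levels of 4.84, 5.11 and 4.90 with MN1 and 5.28, 5.14 and 5.59 with the empty vector. Its groups did not overlap, and the difference was -0.39 ± 0.15 (adjusted p 0.584, limma), while Ccl20 differed by -0.07 ± 0.13. The T and natural killer cell markers (14 of 15 measured, 11 lower) had mean levels of 5.91 to 6.27 with MN1 and 6.34 to 6.60 with the empty vector. Of the 14, 7 were dim, Cd3d, Cd3e and Cd3g among them. The largest differences on the list belonged to the brighter Gzmb (-1.33) and Thy1 (-1.10). The part of this marker list in the small differences of Xcl1, Xcr1 and Ccr6 was not tested.

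Among the remaining homeostatic ligands, Ccl25, which draws thymocytes and gut T cells, differed by 0.31 ± 0.16, and both of its probe sets were higher on average. Ccl28, Cxcl14 and Cxcl17, which are best known from epithelia, differed by -0.05, 0.00 and -0.16. Ccr9, the receptor for Ccl25, was dim and differed by -0.01 ± 0.09. Ccr10, the receptor for Ccl28, was lower on all MN1 arrays, by -0.27 ± 0.12.

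The genes around the chemokine receptors were also read from the same fit. Of the 50 measured genes on 4 lists, 25 were higher and 25 lower (median 0.00). The platelet chemokines Ppbp and Pf4, which lie within the Cxcl5 to Cxcl2 run on chromosome 5, were higher on all MN1 arrays. Ppbp had levels of 12.48, 11.79 and 11.60 with MN1 and 11.14, 9.32 and 11.40 with the empty vector, a difference of 1.34 ± 0.56. Pf4 had levels of 11.93, 11.71 and 11.37 with MN1 and 11.13, 9.22 and 11.13 with the empty vector, a difference of 1.18 ± 0.53. Both were lowest on empty vector replicate 2, and without it the differences were 0.69 for Ppbp and 0.54 for Pf4. In all, 7 of 7 measured megakaryocyte and platelet markers, which include this pair, were higher on average with MN1. On the same list of ligands, Mif differed by 0.08 and Cklf by -0.14.

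The list of atypical and decoy receptors, which also holds Ccr1l1 and Pitpnm3, had a median difference of 0.02 (7 genes, 4 higher, 5 dim). The dim Ackr1 was at 0.51 ± 0.26 and the brighter Ccrl2 at 0.19 ± 0.76, the latter at -0.38 without empty vector replicate 2. Of 25 G protein, arrestin and kinase genes below the receptors, 15 were higher and 10 lower (median 0.02). In that list Pik3r6, a regulatory subunit of the PI3-kinase that chemokine receptors activate, differed by -0.57 ± 0.13 with all MN1 arrays below, and Plcb3, a phospholipase activated by G proteins, by 0.45 ± 0.14 with all MN1 arrays above.

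RGS proteins, which switch G proteins off, and enzymes that cleave chemokines were lower on average for 11 of 14 genes, with a median of -0.36. The protease Mmp9, which trims several CXC ligands, differed by -0.97 ± 0.32 and Rgs3 by -0.59 ± 0.15, both with all MN1 arrays below. Elane and Ctsg, proteases of neutrophil granules, differed by -1.59 ± 1.99 and -0.65 ± 0.40 and stand on the neutrophil marker list too. Elane was at -0.45 without empty vector replicate 2 and at 1.29 with the Y-linked covariate. None of the 50 genes had an adjusted p under 0.05 (limma). At an unadjusted p under 0.05, 1 was higher (2.0% beside 4.17% of all genes) and 3 were lower (6.0% beside 4.23%).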

How the data were processed

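RNA from sorted marrow cells (200 ng of total RNA per array) was hybridised to 1-colour Affymetrix whole-transcript arrays, per the labels' protocols. The values are the log2 levels per probe set that the authors deposited, made with RMA (background correction, normalization between arrays, summary over probes) per the submitters' processing notes. Its version is not given in the sources used here. RMA draws dim values together, which makes the differences of dim genes too small, and detection calls were not used.

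Of 35557 probe sets, 21789 carry 1 gene symbol in the 2016 annotation. Those of highest mean gave 19938 genes, fitted with limma 3.58.1 in R 4.3.3 (lmFit, eBayes, two-sided, Benjamini-Hochberg over all genes, threshold 0.05, 4 residual and 2.43 prior degrees of freedom) on 6 arrays without a block. The script was tested on simulated data. Errors are moderated SE. Array medians ran from 5.82 to 6.01, and 3 arrays per group limit the precision. P-values measure the spread between these samples.

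Genes given with all array values differ by at least 0.5 or have an unadjusted p under 0.05, and their partners stand beside them; at most 4 genes per pathway list, those with the largest differences, are named. Ccr2, Cx3cr1, Cxcr5 and Cxcl13 are given as partners or for their pattern, the last pair chosen after their values were seen, as were the single marker genes. The genes, lists and tests were chosen with earlier results of these data known. The replicate numbers are not stated to pair the arrays, so the main fit had no block. Same-numbered arrays correlated at 0.13, 0.07 and 0.32 in their deviations from the group means. Arrays of unlike number correlated at -0.50 to 0.44, so these values do not settle whether the numbers are pairs. Alternatives were quantile normalization, median-centred arrays, a replicate block, a filter on the dimmest 40% of genes, averaged probe sets, array weights, a robust prior with an intensity trend, leaving out each array and, added after the data were seen, a Y-linked covariate. Promoter sequences are from RefSeq (GRCm38.p6), and genes were matched by gene ID. An item withheld for evaluation is not reported here.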

Additional observations from a re-analysis of the deposited data

How the results depend on the processing

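No gene, chemokine or other, had an adjusted p under 0.05 under any of the 14 alternatives. The smallest adjusted p was 0.0989 over all genes (without MN1 replicate 1) and 0.43 over the chemokine genes. Of 277 differences of the 20 genes named by size or unadjusted p, 271 kept their direction, and 14 of the 20 genes kept it throughout. The reversals were Cxcl1, which ran from -0.15 to 1.16 with an array left out, Ccl24, from -1.78 to 0.33, and, with the Y-linked covariate, chosen after seeing the data, Ccl12 at -0.26, Ccl8 at -0.41, Cxcl5 at -0.24 and Cxcr2 at 0.23. The count of chemokine genes higher at an unadjusted p under 0.05 (3) was 6 with the replicate block, 1 with array weights, 0 with the Y-linked covariate and 1 to 3 with an array left out. Over all genes the count higher (832) was 1140, 829, 388 and 508 to 1044 under the same alternatives. The count of chemokine genes lower (5) was 3 with median-centred arrays, 2 with quantile normalization, 2 without the dimmest 40% of genes and 2 to 6 with an array left out. Over all genes the count lower (843) was 400, 721, 251 and 398 to 1037 under these alternatives. The filter on dim genes removes Ccr6, Xcl1 and Xcr1 and leaves 14 lower genes of 31. With the replicate block, 6 genes were higher and 7 lower at an unadjusted p under 0.05, beside 1140 and 840 of all genes. The smallest adjusted p of a chemokine gene was then 0.495 (limma). The block took the unadjusted p (limma) from 0.297 to 0.00109 for Cxcl5 and from 0.259 to 0.00447 for Ccl12. It took that of Ccr6 from 0.0373 to 0.0648 and that of Xcr1 from 0.0461 to 0.0888. MN1 replicate 2 correlated best with empty vector replicate 1 (0.44). The count at least 2-fold higher (6) was 1 without empty vector replicate 2 and 1 with the Y-linked covariate. Of all genes, 0.542% and 0.717% were that much higher under the same alternatives. The causes of these shifts were not tested. With 3 arrays per group, dim genes near background carry little information.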
